A study of Mus musculus with 8 samples.

Results

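The transcripts of 10 genes of the Z-disc and of mechanical stress were followed in white quadriceps of fasted mice with and without the mitochondrial thioesterase gene Acot2 in muscle. They were chosen by name, as the rows of the expression table with the symbols Actn2, Actn3, Myoz1, Myoz2, Ldb3, Tcap, Csrp3, Ankrd1, Ankrd2 and Xirp1. All 10 were found once each among 54091 gene rows, and all 10 passed the filter on low values that left 13141 genes for testing. The series holds 8 RNA-seq libraries from male Mus musculus aged 11 to 14 weeks, each fasted overnight for 14 h. The floxed control group (genotype Loxp/Loxp, replicates 1 to 4) carries floxed Acot2 and no Cre, and the Acot2 muscle knockout group (CKM Cre, replicates 5 to 8) adds a Cre driven from the promoter of the creatine kinase gene of muscle. Such a Cre acts in muscle fibres and leaves Acot2 in the other cells of the tissue. No group with Cre and without floxed alleles was analysed here, so an effect of Cre and the loss of Acot2 cannot be told apart. The mouse numbers in the titles differ, and the libraries were taken as separate animals.

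The Z-disc is the plate at each end of a sarcomere where the actin filaments of neighbouring sarcomeres are anchored and crosslinked by alpha-actinin. The other proteins followed here bind alpha-actinin, titin or actin, at the Z-disc or elsewhere in the fibre. Several of them also move to the nucleus or bind signalling enzymes when the muscle is stretched or damaged. Fast glycolytic and slow oxidative fibres use different paralogues of these proteins, and white quadriceps is a muscle made mainly of fast glycolytic fibres.

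All values are the authors' normalized counts, which are read counts divided by a size factor for each library, or their log2 with 1 added. Each difference is a log2 difference, the knockout mean less the control mean, and its standard error (SE) comes from a limma fit over all tested genes. Reads on genes ranged from 28659632 to 40977866 per library, and the member with the least signal, Ankrd1, still had 84 to 515 reads. Acot2, the targeted gene, had 1675, 3927, 2492 and 1529.5 normalized counts in the 4 controls in order and 413, 312, 600.5 and 543 in the 4 knockouts. All knockouts lay below every control (difference -2.30, SE 0.287, limma adjusted p = 0.087, exact permutation p = 0.0286), and over the alternatives its limma adjusted p ranged from 0.0042 to 0.758. The adult fast myosin gene Myh4 took 4.46% to 8.20% of normalized counts, and the slow myosin gene Myh7 had at most 303 normalized counts in a library. Of 6 cardiac-enriched genes Nppb and Myl7 were at 0 in every library, and Nppa and Tnni3 were also under the filter. The 2 that were tested, Myh6 and Tnnt2, had 24.2 to 123 and 0 to 112 normalized counts. In bulk tissue, fewer fibres of a type and less RNA per fibre cannot be told apart.

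Promoter sequences are given for 4 members that were lowest in floxed control 4 and highest in knockout 7. Floxed controls 3 and 1 followed, for Actn2 only narrowly ahead of knockout 8. The promoter of Ankrd1, whose values took another course, is also given. RefSeq entries (build GRCm38.p6) were matched for 6 of the 10 members, Actn2, Myoz2, Ldb3, Csrp3, Ankrd1 and Ankrd2. Each runs 5′ to 3′ on the gene's strand, from 250 bases before the start of the transcript to 50 after it. In the first 4, capitals mark E-boxes, CANNTG, the general form of the motif that myogenic factors such as MyoD bind. Any middle letters were accepted, so a marked stretch need not be a form that those factors bind. In Ankrd1, capitals mark the MCAT motif CATTCC, which TEAD factors bind, on either strand. For Csrp3 the upstream of 2 annotated starts is shown.
Actn2 (chr13:12340683-12340982, minus strand): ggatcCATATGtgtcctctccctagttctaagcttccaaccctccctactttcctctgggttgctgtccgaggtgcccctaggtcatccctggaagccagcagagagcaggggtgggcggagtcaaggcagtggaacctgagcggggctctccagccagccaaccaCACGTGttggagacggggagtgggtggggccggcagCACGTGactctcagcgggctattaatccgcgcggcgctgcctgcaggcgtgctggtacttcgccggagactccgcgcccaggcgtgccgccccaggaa
Myoz2 (chr3:123034938-123035237, minus strand): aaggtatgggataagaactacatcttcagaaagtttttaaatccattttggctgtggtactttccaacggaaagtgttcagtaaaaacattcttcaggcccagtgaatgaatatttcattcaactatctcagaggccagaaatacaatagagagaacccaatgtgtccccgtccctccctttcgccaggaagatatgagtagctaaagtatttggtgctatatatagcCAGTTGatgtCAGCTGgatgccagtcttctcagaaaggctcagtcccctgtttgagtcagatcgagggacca
Csrp3 (chr7:48848002-48848301, minus strand): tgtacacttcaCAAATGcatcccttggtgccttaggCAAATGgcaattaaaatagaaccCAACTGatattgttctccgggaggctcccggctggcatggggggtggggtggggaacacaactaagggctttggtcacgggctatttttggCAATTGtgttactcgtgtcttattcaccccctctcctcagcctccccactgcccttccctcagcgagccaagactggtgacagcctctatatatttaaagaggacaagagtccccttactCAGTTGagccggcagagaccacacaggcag
Ankrd2 (chr19:42035777-42036076, plus strand): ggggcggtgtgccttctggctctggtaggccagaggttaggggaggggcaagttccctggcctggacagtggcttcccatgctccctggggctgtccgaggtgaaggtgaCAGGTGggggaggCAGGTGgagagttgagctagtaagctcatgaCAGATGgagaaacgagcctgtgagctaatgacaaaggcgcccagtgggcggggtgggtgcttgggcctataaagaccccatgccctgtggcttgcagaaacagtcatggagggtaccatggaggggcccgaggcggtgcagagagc
Ankrd1 (chr19:36119795-36120094, minus strand): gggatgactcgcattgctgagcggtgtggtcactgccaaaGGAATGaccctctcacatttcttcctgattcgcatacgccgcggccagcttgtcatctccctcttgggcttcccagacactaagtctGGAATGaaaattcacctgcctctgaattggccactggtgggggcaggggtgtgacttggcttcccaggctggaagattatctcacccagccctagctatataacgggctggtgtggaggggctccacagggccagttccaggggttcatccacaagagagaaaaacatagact

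The Actn2 window held 3 E-boxes, that of Myoz2 held 2, that of Csrp3 held 5 and that of Ankrd2 held 3. E-boxes were found in 72.3% of 32544 distinct promoter windows of 300 bases, so their presence does not set these genes apart. Ankrd1 held 2 MCAT motifs, against 14.6% of all windows with at least 1, and 1 E-box. A MEF2 motif was found in Myoz2, beginning 33 bases before the start and ending ahead of the first of its E-boxes (3.16% of all windows), and a CArG box, the motif of SRF, in both Ldb3 windows, which overlap each other (1.64% of all windows). A TATAAA motif stood 29 bases before the start in Ankrd2 (13.6% of all windows), and GGAAAA, the core bound by NFAT, was in none of the members' windows (23.3% of all windows). Both strands were searched, and a match is a stretch of letters and not a shown binding site.

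For none of the 10 members did the genotypes differ beyond the spread between mice. With limma, 0 of the 10 passed an adjusted p of 0.05, as did 0% of the 13141 tested genes, and 0 of the 10 passed at an unadjusted p under 0.05, where 6.16% of all tested genes did (324 higher and 486 lower, or 491 and 246 with every library scaled to the same total). With voom on recovered reads 0 genes were called. There 0 of the 10 members passed at an unadjusted p under 0.05, where 756 of the 13141 tested genes did (302 higher and 454 lower). In 0 of the 10 members did the groups stand apart without overlap, which happened in 2.75% of all tested genes. Adjusted p (limma) ranged from 0.83 for Ldb3 to 0.969 for Actn3, and exact two-sided permutation p from 0.257 to 0.886, where 0.0286 is the smallest that 4 mice against 4 allow. Values were higher in the knockout in 8 of the 10 members and lower in 2, with a median difference of 0.17 beside 0.0031 over all tested genes. The count of members higher was between 6 and 10 over the 20 other settings, and these signs carry no test.

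**Figure D1:**
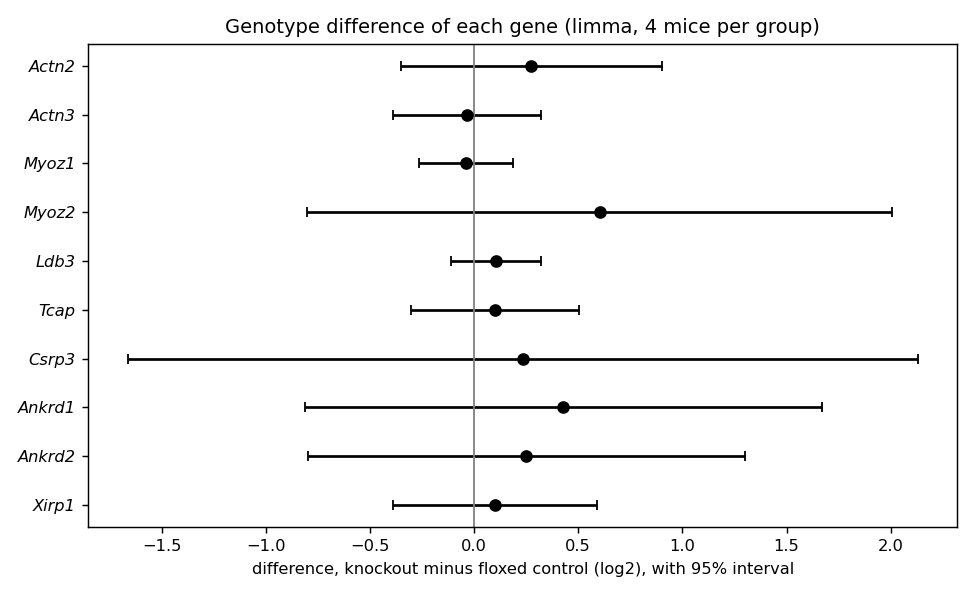
Log2 difference of each gene, knockout minus floxed control (horizontal axis), for the 10 members (vertical axis). Points are limma estimates from 4 mice per group, bars are 95% intervals, and every interval contains 0, from the narrowest of Ldb3 (-0.11 to 0.32) to the widest of Csrp3 (-1.66 to 2.13).

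What the experiment could have shown differed widely between members. For the abundant and even transcripts the 95% intervals were narrow: Ldb3 lay between 0.925-fold and 1.25-fold of the floxed control, Myoz1 between 0.832-fold and 1.14-fold, and Actn3 between 0.764-fold and 1.25-fold. For Csrp3 the interval ran from 0.316-fold to 4.38-fold, for Myoz2 from 0.574-fold to 4.02-fold, for Ankrd1 from 0.57-fold to 3.18-fold and for Ankrd2 from 0.575-fold to 2.46-fold. A doubling of any of these 4 lay inside its interval.

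The levels of the 10 genes, compared per kilobase of transcript, covered a wide range. Actn3, the alpha-actinin of fast fibres, was highest at 85628 ± 9527 normalized counts per kilobase (SD, n = 8), followed by Tcap (45974 ± 9989), which caps the end of titin in the Z-disc, and Myoz1 (30653 ± 2323), the fast-fibre calsarcin that ties alpha-actinin to the phosphatase calcineurin. Ldb3 (6652 ± 568), a PDZ and LIM domain protein that holds the Z-disc together, and Actn2 (4602 ± 1594), the alpha-actinin of all striated fibres, came next. Below them were Ankrd2 (2149 ± 1177), Xirp1 (941 ± 245), Csrp3 (728 ± 731), Myoz2 (393 ± 392) and Ankrd1 (103 ± 81.6), all SD with n = 8. Each gene stood above the next in the order in all 8 libraries, except that Ldb3 exceeded Actn2 in 7 of 8, Xirp1 exceeded Csrp3 in 5 of 8, and Csrp3 exceeded Myoz2 in 7 of 8. Xirp1 and Csrp3 thus did not differ beyond their spread.

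**Figure D2:**
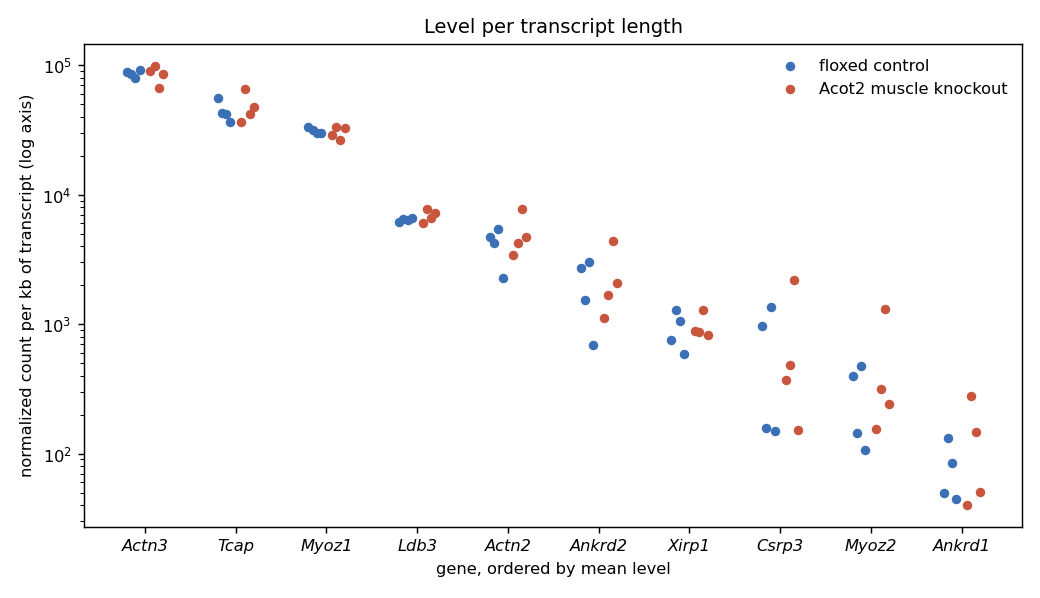
Normalized counts per kilobase of the longest protein-coding transcript (vertical log axis) for each gene, ordered by mean level (horizontal axis), with 1 point per library. The means fall from 85628 for Actn3 to 103 for Ankrd1, and the points of Csrp3, Myoz2, Ankrd2 and Ankrd1 spread far more than those of Actn3, Myoz1 and Ldb3.

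The alpha-actinins crosslink actin filaments. Actn3 (chromosome 19, 4861216 to 4877909, minus strand, GRCm38, 21 exons) had 253530, 246426, 229637 and 266042 normalized counts in the controls, in the order of replicates 1 to 4, and 260422, 284584, 192312 and 244707 in the knockouts, in the order of replicates 5 to 8. The groups overlapped, and both the highest and the lowest value were in knockouts, 6 and 7. The difference was -0.033 (SE 0.161), and it turned to 0.0088 when every library was scaled to the same total, to 0.080 without knockout 7 and to 0.00017 without floxed control 4. Actn2 (chromosome 13, 12269426 to 12340760, minus strand, 21 exons) had 14192, 12801, 16375 and 6877 normalized counts in the controls and 10309, 12832, 23418 and 14118.5 in the knockouts. Floxed control 4 was lowest and knockout 7 highest, 3.41 times apart, and the remaining knockouts lay among the controls. The difference was 0.27 (SE 0.284), and it was between 0.0080 and 0.44 with each library left out in turn.

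Per kilobase, Actn3 exceeded Actn2 by 18.6, 20.1, 14.6 and 40.4 times in the controls and by 26.4, 23.1, 8.57 and 18.1 times in the knockouts, in the same order. The ratio was thus highest in floxed control 4 and lowest in knockout 7, and it did not separate the genotypes (log2 difference -0.31, exact permutation p = 0.571, adjusted p = 0.857 over the 3 pairs of paralogues compared). Without knockout 7 the difference was 0.038.

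Calsarcins link alpha-actinin to filamin, to telethonin (the product of Tcap) and to calcineurin. Myoz1 (chromosome 14, 20649107 to 20656540, minus strand, 6 exons) was the most even member: it had 42509, 40436, 38231 and 38778 normalized counts in the controls and 37434, 42698, 34021.5 and 41990.2 in the knockouts, a difference of -0.040 (SE 0.102) that turned to 0.025 without knockout 7. Its highest library exceeded its lowest by 1.26 times. Myoz2, the calsarcin of heart and slow fibres (chromosome 3, 123006206 to 123035015, minus strand, 6 exons), had 473, 169, 558 and 125 normalized counts in the controls and 181, 373, 1545 and 287 in the knockouts. Here 3 of the 4 knockouts lay within the range of the controls and knockout 7 stood far above all other libraries. The difference of 0.60 (SE 0.637) rested on that mouse and was -0.026 without it. Myoz1 exceeded Myoz2 per kilobase by 62.7 to 281 times in the controls and by 20.2 to 188 times in the knockouts (log2 difference -0.64, exact permutation p = 0.571, adjusted p = 0.857).

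The scaffold gene Ldb3 and the titin-cap gene Tcap had their highest value in the same library. Ldb3 (chromosome 14, 34526603 to 34588682, minus strand, 14 exons in its longest coding transcript) had 31386, 33086.5, 32774 and 33749 normalized counts in the controls and 31077, 39882, 33840.4 and 36620.4 in the knockouts. All but knockout 5 lay above every control, a difference of 0.10 (SE 0.0988) that was between 0.045 and 0.16 with each library left out in turn. It had the smallest exact permutation p of the members (p = 0.257). Tcap (chromosome 11, 98383811 to 98384953, plus strand, 2 exons) had 53209, 40188, 39733 and 34325 normalized counts in the controls and 34739, 61683, 39719.6 and 45069.6 in the knockouts. The groups overlapped almost fully; knockout 6 was highest, and without it the Tcap difference of 0.099 (SE 0.183) turned to -0.061.

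Csrp3, which encodes muscle LIM protein, an adaptor between the Z-disc and the nucleus that is most abundant in heart and slow fibres, was the most variable member. The gene lies on chromosome 7 (48830398 to 48848033, minus strand, 6 exons). It had 876, 142, 1212 and 135 normalized counts in the controls and 334, 436, 1963 and 137 in the knockouts. Low and high mice occurred in both genotypes, the highest library exceeded the lowest by 14.5 times, and the controls alone spanned 8.97 times. The difference was 0.23 (SE 0.861), and it turned to -0.48 without knockout 7, -0.26 without floxed control 4 and -0.24 without floxed control 2. Its SD over the 8 libraries, 1.52 on the log2 scale, was larger than that of 99.7% of tested genes, whose median was 0.23.

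The muscle ankyrin repeat proteins bind titin in the I-band and pass to the nucleus on stretch. Ankrd2, which is most abundant in slow fibres (chromosome 19, 42036000 to 42045110, plus strand, 9 exons), had 3100.4, 1743, 3407 and 781 normalized counts in the controls and 1276, 1921, 4957 and 2377 in the knockouts. It was lowest in floxed control 4 and highest in knockout 7, as Actn2 and Myoz2 were, with a difference of 0.25 (SE 0.476) that turned to -0.19 without floxed control 4 and to -0.11 without knockout 7. Ankrd1, a cardiac gene that damaged or denervated skeletal muscle switches on (chromosome 19, 36111961 to 36120099, minus strand, 9 exons), had 101, 266, 172 and 90.7 normalized counts in the controls and 81.1, 561, 298 and 102 in the knockouts. The mice did not fall in the order seen for Ankrd2: knockout 6 was highest, knockout 5 lowest, and floxed control 2 was highest of its group. The Ankrd1 difference was 0.43 (SE 0.563), and -0.083 without knockout 6. The ratio of Ankrd1 to Ankrd2 per kilobase ranged from 0.0185 to 0.0863 in the controls and from 0.0243 to 0.165 in the knockouts (log2 difference 0.18, exact permutation p = 0.857, adjusted p = 0.857), a difference that turned to -0.42 without knockout 6, -0.21 without floxed control 1 and -0.0035 without floxed control 3.

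Xirp1 encodes Xin, an actin-binding repeat protein found where fibres attach or are being repaired (chromosome 9, 120013755 to 120023598, minus strand, 3 exons). It had 4429.6, 7445, 6203.5 and 3440.45 normalized counts in the controls and 5119.97, 5068, 7445 and 4801 in the knockouts. Floxed control 2 and knockout 7 shared the highest value and no knockout lay outside the range of the controls. The difference was 0.10 (SE 0.222), and it was -0.095 without floxed control 4 and -0.044 without knockout 7.

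**Figure D3:**
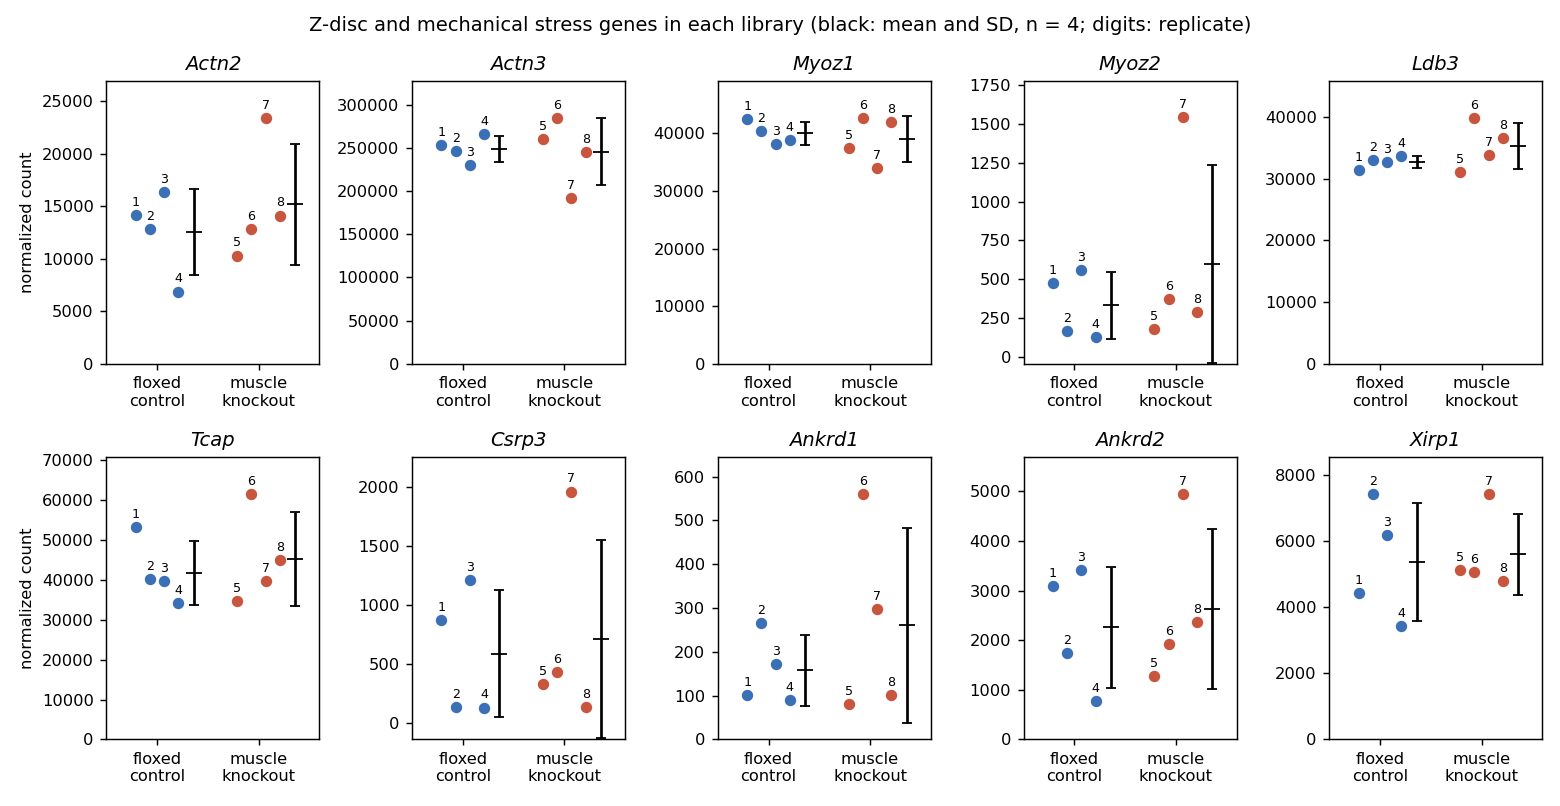
Normalized counts (vertical axes, from 0 or just below it where an error bar passes it) of the 10 genes in floxed control and muscle knockout libraries, with 1 numbered point per mouse and black bars for mean and SD (n = 4). The groups overlap in every panel, and knockout 7 is highest for Actn2, Myoz2, Csrp3 and Ankrd2 while knockout 6 is highest for Actn3, Myoz1, Ldb3, Tcap and Ankrd1.

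The members divided by how they varied between mice rather than by genotype. For Actn2, Myoz2, Csrp3 and Ankrd2, floxed control 4 was lowest, knockout 7 highest, with floxed controls 3 and 1 next to it. The order was close for Actn2, at 14192 normalized counts in floxed control 1 and 14118.5 in knockout 8. The other mice did not keep 1 order: knockout 8 had 137 normalized counts of Csrp3, near floxed control 4 (135), but 2377 of Ankrd2. Xirp1 was also lowest in floxed control 4, and knockout 7 shared its highest value with floxed control 2. Over the 8 libraries the SD on the log2 scale was 0.51, 1.16, 1.52 and 0.85 for these genes, and 1.00 for Ankrd1, beside a median of 0.23 over all tested genes. Ldb3, Myoz1 and Actn3 had an SD of 0.12, 0.11 and 0.17, below that median, and Tcap and Xirp1 stood at 0.29 and 0.38. The pattern was noticed in these values and has no test here.

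The same libraries stood out for myosin genes. Myh2, the myosin of fast oxidative fibres, had 18567, 4421, 18357 and 4678 normalized counts in the controls and 7087, 4005, 59055 and 4102 in the knockouts. Knockout 7 and floxed controls 1 and 3 thus formed a high set apart from the other 5 mice. These were also the 3 mice with the most Csrp3, Myoz2, Ankrd2 and Actn2. For Actn2 they formed no set apart, with 14192 normalized counts in floxed control 1 and 14118.5 in knockout 8. Because the Myh2 values fall into separate sets, no correlation with Myh2 was computed. Myh1, the myosin of intermediate fast fibres, was lowest in floxed control 4 (49241) and highest in knockout 7 (203391), whereas the share of Myh4 was highest in floxed control 4 (8.20% of normalized counts) and lowest in knockout 7 (4.46%). Correlations of the members with slow fibre genes are given below, and how much of the members' values fibre makeup accounts for was not tested.

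**Figure D4:**
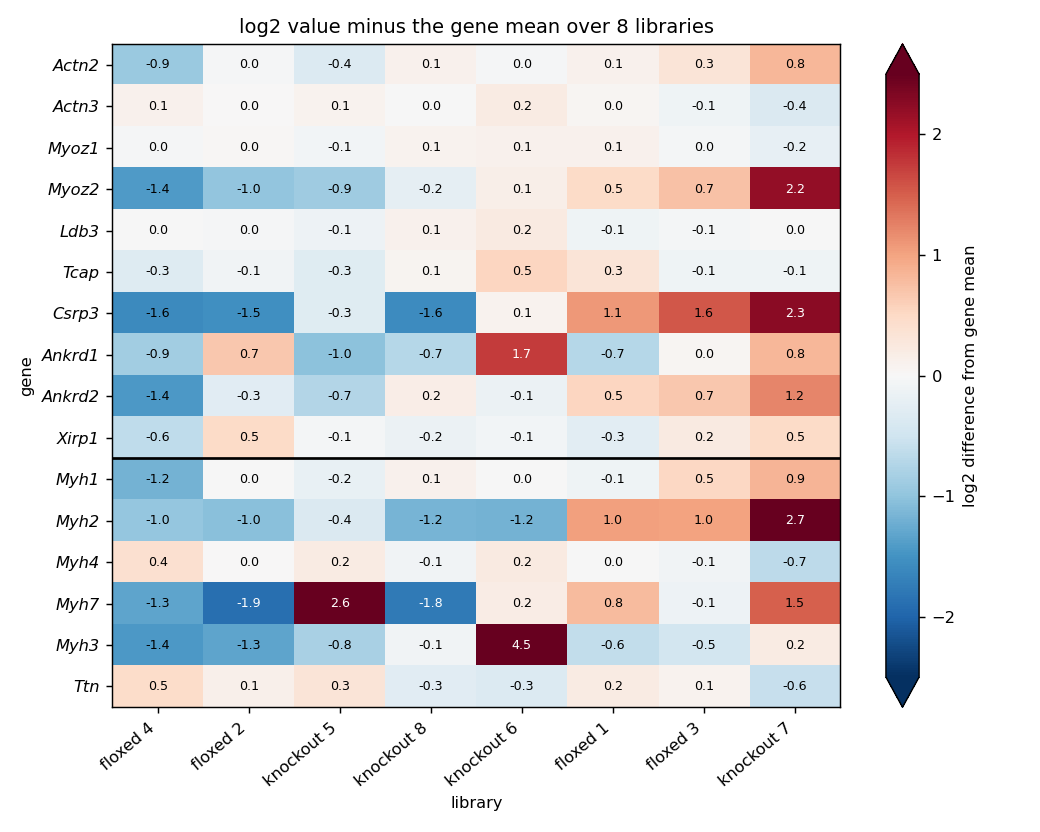
Log2 value of each gene (rows) in each library (columns) minus its mean over the 8 libraries, for the 10 members above the line and for 5 myosin genes and Ttn below it; red is above and blue below the mean, and colours end at 2.5. Columns follow the rising level of Myoz2, and Csrp3, Ankrd2, Actn2, Myh1 and Myh2 are all highest in knockout 7 at the right.

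The mean log2 value of 10 slow fibre genes (Myh7, Myl2, Myl3, Tnnt1, Tnni1, Tnnc1, Tpm3, Atp2a2, Casq2 and Myh7b) was then set beside each member over the 8 mice, as 10 relations. Csrp3 had the closest relation (Pearson r = 0.78, exact permutation p = 0.0265, adjusted p = 0.231; Spearman rho = 0.79, exact permutation p = 0.0279, adjusted p = 0.279), followed by Myoz2 (r = 0.71, exact permutation p = 0.0463, adjusted p = 0.231; rho = 0.67, p = 0.0831, adjusted p = 0.415). None of the 10 passed after adjustment. Without floxed control 4 and knockout 7, the mice farthest from the median of the slow fibre mean, r was 0.59 for Csrp3 (exact permutation p = 0.228, n = 6) and 0.33 for Myoz2 (exact permutation p = 0.493, n = 6), so both relations rested in part on those mice. Actn2, Ankrd2 and Ankrd1 had r of 0.58, 0.54 and 0.54 over all 8 (adjusted p = 0.343 for each, exact permutation), and the first 2 turned to -0.27 and -0.13 without those mice. Among the slow fibre genes Myh7 had 12.2 to 303 normalized counts and Atp2a2, a calcium pump gene, 1167 to 1805. Others had few counts: Myl3 fell to 1.04 in floxed control 3 and Tnnc1 to 2.42 in knockout 8. The slow fibre mean was 7.45 in knockout 7 and 7.27 in knockout 6. Knockout 6 had 293 of Tnni1 and 188 of Tnnt1, but 54.5 of Myh7 and 4005 of Myh2. It also stood apart for the embryonic myosin gene Myh3, as given below, and the part of that state in the slow fibre mean was not tested. Knockout 5, with the most Myh7 (303 normalized counts), had only 181 of Myoz2.

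**Figure D5:**
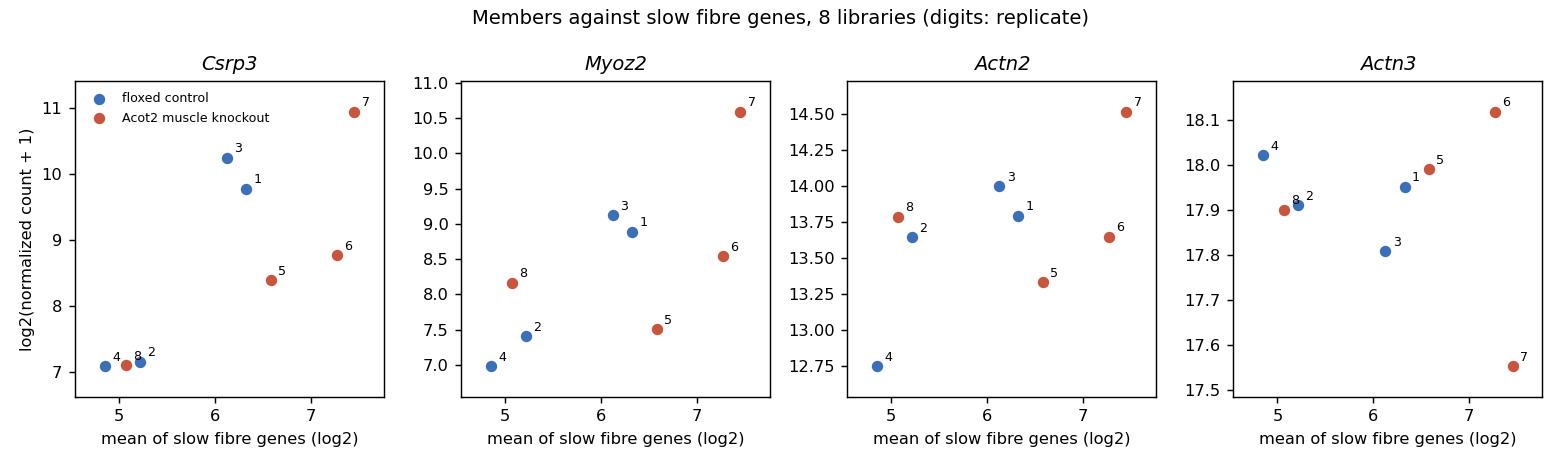
Log2 value of Csrp3, Myoz2, Actn2 and Actn3 (vertical axes) against the mean log2 value of 10 slow fibre genes (horizontal axes) in 8 numbered libraries. Csrp3 and Myoz2 are highest in knockout 7 and lowest in floxed control 4 (r = 0.78 and 0.71), and Actn3 is lowest in knockout 7.

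Knockout 6, highest for Ankrd1 and Tcap, also stood apart in some, but not all, genes of regenerating and denervated muscle. It had 2526 normalized counts of the embryonic myosin gene Myh3, against 39.1 to 125 in the other 7 libraries, and 115833 of Actc1, the cardiac actin that immature fibres express, against 5503 to 39544. Chrng, the acetylcholine receptor subunit of immature or denervated fibres, had 41.4 there and at most 2.42 elsewhere. The perinatal myosin gene Myh8 had 2412 there and 199 to 306 elsewhere. Of the same lists, the muscle stem cell gene Pax7 (18.5), the myogenic factor gene Myf5 (25.1) and the receptor subunit gene Chrnd (27.2) lay within the range of the other libraries, and the myogenic factor gene Myod1 was lowest of all in knockout 6 (14.2, against 18.2 to 77.5). Its 6 macrophage markers (Adgre1, Cd68, Csf1r, Lyz2, Mrc1 and C1qa) had the highest mean log2 value of all libraries, 8.50 against 6.82 to 7.98. All 6 of them had higher values in the knockout group, where their summed normalized counts ran from 1867 to 3359 against 1122 to 2011 in the controls, and 4 of the 6 (Adgre1, C1qa, Lyz2 and Cd68) had an unadjusted limma p under 0.05, beside 6.16% of all tested genes. The part of these cells in the level of Ankrd1 was not tested.

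Titin, the partner of Tcap and of the ankyrin repeat proteins, took a smaller share of normalized counts in 3 of the knockouts. It took 8.67%, 8.34% and 9.22% in knockouts 6 to 8, against 13.9% in knockout 5 and 11.8% to 14.9% in the controls. The difference of its gene Ttn was -0.43 (SE 0.366, limma adjusted p = 0.81). In a further list of 37 Z-disc proteins, 36 were tested (Fhl2 was under the filter), 15 were higher and 21 lower, 0 passed the adjusted limma test and 5 of 36 had an unadjusted p under 0.05, beside 6.16% of all tested genes. The median difference was -0.074, beside 0.0031 over all tested genes. Among them the LIM protein gene Pdlim1 was at 0.52 (SE 0.175), with a limma adjusted p of 0.746.

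Signalling genes around the Z-disc gave no called gene. Of 10 genes of calcineurin and NFAT, the pathway that calsarcins bind, 2 were higher and 8 lower, with a median of -0.097; the smallest p belonged to Nfatc3 at -0.22 (SE 0.109) and Nfatc1 at -0.20 (SE 0.116). Of 22 genes of YAP, SRF and mechanical load, 11 were higher and 11 lower with a median of 0.019, and Egr1, an early response gene, was at -0.82 (SE 0.453) and the TEAD factor gene Tead1 at -0.16 (SE 0.0934). Slow fibre genes had 9 of 10 higher with a median of 0.90, with 2 of 10 at an unadjusted limma p under 0.05, beside 6.16% of all tested genes: Myl3, a slow myosin light chain, at 2.89 (SE 0.775) and the calsequestrin gene Casq2 at 0.60 (SE 0.24). Some of these genes had few counts, so their differences are loosely measured. Myl3 had 17.2, 33.1, 1.04 and 3.56 normalized counts in the controls, and the control mean of Tnni1 was 9.73. Beside Casq2, the more abundant Tpm3 was at 0.16 (SE 0.15) and Atp2a2 at 0.13 (SE 0.137). Of 10 fast fibre genes 6 were higher and 4 lower with a median of 0.034, with the calcium pump gene Atp2a1 at -0.26 (SE 0.209) and Myh1 at 0.39 (SE 0.332). Limma adjusted p was 0.746 or more for every gene of these lists.

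Markers of other cells also had 0 called genes in every list. Of the smooth muscle and pericyte markers 6 of 6 were higher (median difference 0.44), with summed normalized counts of 11665 to 15024 in the controls and 15020.5 to 17020 in the knockouts. Endothelial markers had 5 of 6 higher (median 0.26, sums of 6645 to 7618 and 7741 to 9230, not overlapping), and 4 of 6 (Pecam1, Flt1, Cldn5 and Vwf) had an unadjusted limma p under 0.05, beside 6.16% of all tested genes. Fibroblast markers had 5 of 6 higher (0.19; 24437 to 36966 and 23843 to 55051), and Schwann cell markers 6 of 6 (0.26; 1206 to 1757 and 1314 to 1857). All 6 tendon markers were lower (-0.26; 3862 to 6559 and 3594 to 6650.1). These sums overlapped between the groups in every list but the endothelial one. Satellite cell and regeneration markers had 4 of 6 higher (0.45; 436 to 482 and 439 to 5103), denervation markers 3 of 5 tested (0.017; 2918 to 4721 and 2525 to 5236), adipocyte markers 3 of 5 (0.14; 219 to 2138 and 539 to 1859) and cardiac-enriched genes 0 of 2 (-0.35; 42.7 to 149 and 24.2 to 148). At an unadjusted limma p under 0.05 stood 1 smooth muscle, 1 Schwann cell and 1 denervation marker, and 0 of the fibroblast, tendon, regeneration, adipocyte and cardiac-enriched genes. How far these cells bear on the members was not tested.

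For each member the 2 genes with the nearest course over the 8 libraries were sought among 11729 named genes, by the mean absolute difference between centred log2 values. Those nearest to Csrp3 were Myom3, an M-band gene (0.33), and Myl10, a myosin light chain gene (0.36), where Csrp3 itself deviated from its mean by 1.25 on average. Myoz2 was nearest to the LIM protein gene Fhl1 (0.29) and to Ldhb, a lactate dehydrogenase subunit (0.35). Ankrd2 was nearest to Lmod2, an actin filament nucleator (0.18), and Gnmt (0.22), and Actn2 to St3gal5 (0.080) and Prkg1 (0.094). For Ankrd1 they were the myeloid integrin gene Itgam (0.35) and Serpinb1a (0.36), and for Xirp1 Pdlim2 (0.087) and Gpr137 (0.10). The members with the smallest spread also had the nearest neighbours, since the measure grows with spread: Dnase1l1 and Fbxl17 for Actn3 (0.033 and 0.040), Clns1a and Zranb1 for Myoz1 (0.028 and 0.029), and Rpl29 and Fem1a for Ldb3 (0.031 and 0.033). Tcap was nearest to Fibin and Rnh1 (0.048 and 0.076). A near course says nothing of shared control, and all genes of a library share its depth.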

How the data were processed

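RNA-seq was made from white quadriceps of 8 mice, per the labels' protocols with column-extracted RNA and TruSeq stranded libraries. Trimming, alignment and counting tools named in the submitters' processing notes are cutadapt, STAR and HTSeq, beside FastQC and DESeq2, all without a version, on build GRCm38. How strand was counted, the annotation and any filter are not stated in them. The authors deposited log2 values per gene and library. From the values, each is log2(n + 1), where n is a read count over a size factor of the library, with no scaling for length: of values up to 200 reads, 100% were within 0.1 read of a whole number. Columns were matched to mice by number.

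Genes with a mean of at least 10 normalized counts (13141) were tested with limma 3.58.1 in R 4.3.3 (trend), keeping the pseudocount of 1, which understates changes of low genes, with Benjamini-Hochberg adjustment over all of them; calls are at 0.05. Single values and ratios had exact two-sided permutation tests. Gene models are GENCODE M21 (GRCm38), lengths those of the longest protein-coding transcript, and 4 list genes were matched by gene ID under older symbols. The fit was tested on simulated data. The members and lists were chosen with earlier results of these data known. Named are Acot2, all members, the 2 genes of smallest p of each muscle list (1 of them is not reported here) and the 2 nearest profiles of each member; Myh2, Myh3, Actc1, Ttn and the order of mice were singled out after their values were seen. Alternatives covered the pseudocount, filters, scalings, weights, a covariate, a replicate block, voom and each library left out.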

Additional observations from a re-analysis of the deposited data

Results flagged for a closer look

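Members, Acot2 and ratios of paralogues gave 28 groups of 4 libraries. In each, the gap between an extreme library and its neighbour was compared with the range of the group. Chance puts about 1 in 20 over Dixon's limit at the 95% level where groups are independent and values normally spread. These groups shared libraries and genes, so that rate is only a rough guide. The limit was exceeded in 3 groups. All 3 were values of knockout 7 among the knockouts: Myoz2 with 1545 normalized counts (gap 0.86 of the range), Csrp3 with 1963 (0.836) and Xirp1 with 7445 (0.879). These gaps are on normalized counts; on the log2 scale they were 0.66 for Myoz2 and 0.57 for Csrp3, under the limit, and 0.85 for Xirp1, over it. For Xirp1 floxed control 2 reached the same count.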

How the results depend on the processing

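Of 200 member differences recomputed under 20 alternatives, 0 passed an adjusted p of 0.05 (smallest 0.401, limma) and 183 kept their direction. Leaving out 1 library in turn reversed 13, each named beside its gene in the results above, with ranges of -0.11 to 0.080 for Actn3, -0.085 to 0.025 for Myoz1, -0.026 to 1.00 for Myoz2, -0.061 to 0.22 for Tcap, -0.48 to 0.80 for Csrp3, -0.083 to 0.84 for Ankrd1, -0.19 to 0.54 for Ankrd2 and -0.095 to 0.28 for Xirp1. Equal totals gave 0.0088 for Actn3 and 0.0017 for Myoz1, and leaving out floxed control 4 and knockout 5, the libraries of their groups with the most Ttn, gave -0.12 for Csrp3 and -0.058 for Xirp1; the cause was not tested. Differences in the log2 ratios ranged, with 1 library left out, from -0.50 to 0.038 for Actn3 to Actn2, from -1.02 to 0.051 for Myoz1 to Myoz2 and from -0.42 to 0.53 for Ankrd1 to Ankrd2. Correlations with slow fibre genes ranged from -0.67 to 0.41 for Actn3, -0.67 to 0.15 for Myoz1 and -0.45 to 0.34 for Ldb3, and 0 members passed after adjustment under the 10 alternatives tried, among them the 6 mice of the lower range of mouse numbers, chosen after seeing the data, as were the count of members higher and the order by all exons joined, which was the same for 10 of 10.

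Without the filter on low values 1 gene was called, Acot2 (difference -2.30, adjusted p = 0.0042, limma), against 0 in the other 19. Over all genes the count at an unadjusted p under 0.05 was 810, and it was 1467 with library weights, 1509 without floxed control 4 and knockout 5, 1362 without the filter, 518, 367, 2200, 422 and 456 without floxed controls 1 and 4 and knockouts 5, 6 and 8; 324 of the 810 were higher, against 491 of 737 with equal totals. The titles number the mice from 1 to 8, but the deposited column names number them from 1 to 4 in each group. Deviations of same-numbered libraries from their group means correlated at -0.053, 0.10, 0.28 and -0.16, so the numbers were not taken to pair mice, and each library correlated best with its own number in only 1 of 4 controls and 2 of 4 knockouts. A fit with that number as a replicate block, added after seeing the data, called 0 genes, left 0 of 10 members at an unadjusted p under 0.05 (931 genes in all) and gave Acot2 -2.30 (limma adjusted p = 0.42). The fewest reads behind a member were 84, and 4 mice a group limit the precision.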
